A study of Mus musculus with 24 samples.

Results

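Hbegf, Ereg and Areg encode heparin-binding EGF-like growth factor, epiregulin and amphiregulin, which are ligands of the EGF receptor. Members were all probe sets on the arrays whose platform annotation gives one of these symbols. That rule found 3 of 45037 probe sets, namely 1418350_at and 1418349_at for Hbegf and 1419431_at for Ereg. No probe set carried the symbol Areg, so amphiregulin was not analysed here and 2 of the 3 genes have values, among 18193 genes named on the arrays. All 3 probe sets passed the filter on low values, which asked for a level above log2 4 on at least 3 arrays.

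Ligands of the EGF receptor are made as membrane-bound precursors, and metalloproteases such as ADAM17 cut them at the cell surface to release the soluble factor. The released ligand binds EGFR or ERBB4, which pair with other receptors of the family and signal through Ras and the kinases RAF, MEK and ERK. ERK activity switches on early genes of the Fos, Jun and Egr families together with feedback inhibitors, and the Hbegf, Ereg and Areg genes are themselves known as early targets of this route in cultured cells given serum or growth factor. In fibroblasts this pathway drives entry into the cell cycle and migration.

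Expression was measured in total cellular RNA of NIH-3T3, a fibroblast line from mouse embryos grown in medium with newborn calf serum, on 24 one-colour arrays. Cells received fresh medium with 100 U/ml IFN-alpha, with 100 U/ml IFN-gamma or without interferon (mock), and all but one of the groups also received 4-thiouridine (4sU), a nucleoside built into new RNA. The 3 h groups (3 arrays each of IFN-alpha, IFN-gamma and mock) had 500 uM 4sU from 150 to 180 min. The 1 h groups (4 arrays each of IFN-alpha, IFN-gamma and mock) had 200 uM 4sU from 0 to 60 min, and mock cells at 1 h without 4sU had 3 arrays. None of the 24 arrays was labelled as cells before the change of medium. The labels number the replicates and do not say whether they were separate cultures, so the p-values rest on a spread among arrays that may be technical.

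Levels are GCRMA signals on the log2 scale. Array medians lay between 2.95 and 3.11, and between 16933 and 17688 probe sets exceeded log2 4 on each array. Of the fibroblast markers listed, 10 of 10 had a mean level above log2 4 (median 12.58, highest Vim at 13.81), while 0 of 7 epithelial and 0 of 4 endothelial markers did. Of 7 leukocyte markers measured, 1 did, Cd14 at 5.35. Irf1, a transcription factor induced by both interferons, averaged 9.31 ± 0.11 with IFN-alpha and 11.24 ± 0.39 with IFN-gamma at 1 h, against 5.96 ± 0.43 in mock cells (SD, n = 4 each). On 5 of the 1 h arrays the 3′ actin control probe set exceeded the 5′ one by 2.22 to 3.43 log2 units, known as a sign of shortened RNA or incomplete labelling. These were replicate 2 of IFN-alpha, IFN-gamma and mock and replicates 2 and 3 without 4sU. The gap was 0.796 to 0.965 on the 3 h arrays and 0.785 to 1.37 on the other 1 h arrays. Replicates also spread less at 3 h, with a median SD over probe sets of 0.118 to 0.127 in the 3 h groups, against 0.350 to 0.403 in the 1 h groups.

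Both ligand genes were far lower at 3 h than at 1 h after the change of medium in mock cells, by 8.84-fold and 8.62-fold for the Hbegf probe sets and by 7.64-fold for Ereg. Hbegf, whose product binds heparan sulphate and is also the diphtheria toxin receptor in human cells, had levels on probe set 1418350_at of 7.09, 7.04 and 7.09 in mock cells at 3 h, against 10.76, 9.56, 9.90 and 10.65 in mock cells at 1 h. The second Hbegf probe set, 1418349_at, read 6.001, 6.05 and 6.03 in mock cells at 3 h, against 9.41, 8.89, 8.84 and 9.40 in mock cells at 1 h. Ereg, whose product binds both EGFR and ERBB4, read 7.66, 7.88 and 8.34 in mock cells at 3 h, against 10.85, 10.63, 10.78 and 11.31 in mock cells at 1 h. On each probe set every 3 h array lay below every 1 h array, and the gap between the highest 3 h array and the lowest 1 h array was 2.47, 2.79 and 2.29 log2 units in the same order. The 3 h levels were still well above log2 4.

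The difference, 3 h minus 1 h in mock cells, was -3.14 ± 0.32 for Hbegf 1418350_at (SE, 95% interval -3.81 to -2.48, limma adjusted p = 1.52e-06). It was -3.11 ± 0.27 for Hbegf 1418349_at (95% interval -3.67 to -2.54, limma adjusted p = 1.94e-07). For Ereg it was -2.93 ± 0.20 (95% interval -3.35 to -2.52, limma adjusted p = 7.19e-09). Thus 3 of 3 probe sets were called lower, where 5.88% of the 19305 probe sets tested were called lower and 13.1% had every 3 h array below every 1 h array. Ordered from the most negative difference, they ranked 7, 8 and 13 of the 19305, and the median difference over all tested probe sets was 0.057. The 3 probe sets stand for 2 genes and are not 3 independent observations. The genes were chosen with earlier results of these data known, so these calls and ranks are a description.

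Time, 4sU concentration and labelling window changed together between these groups and cannot be told apart. Against the mock cells at 1 h without 4sU, the 3 h levels were lower by as much or more, with differences of -3.45 and -3.60 for the Hbegf probe sets and -3.03 for Ereg. Without the 5 arrays of wide actin gap the differences were -3.36, -3.19 and -3.02. In bulk RNA, fewer cells that express a gene and less RNA per cell cannot be told apart.

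**Figure D1:**
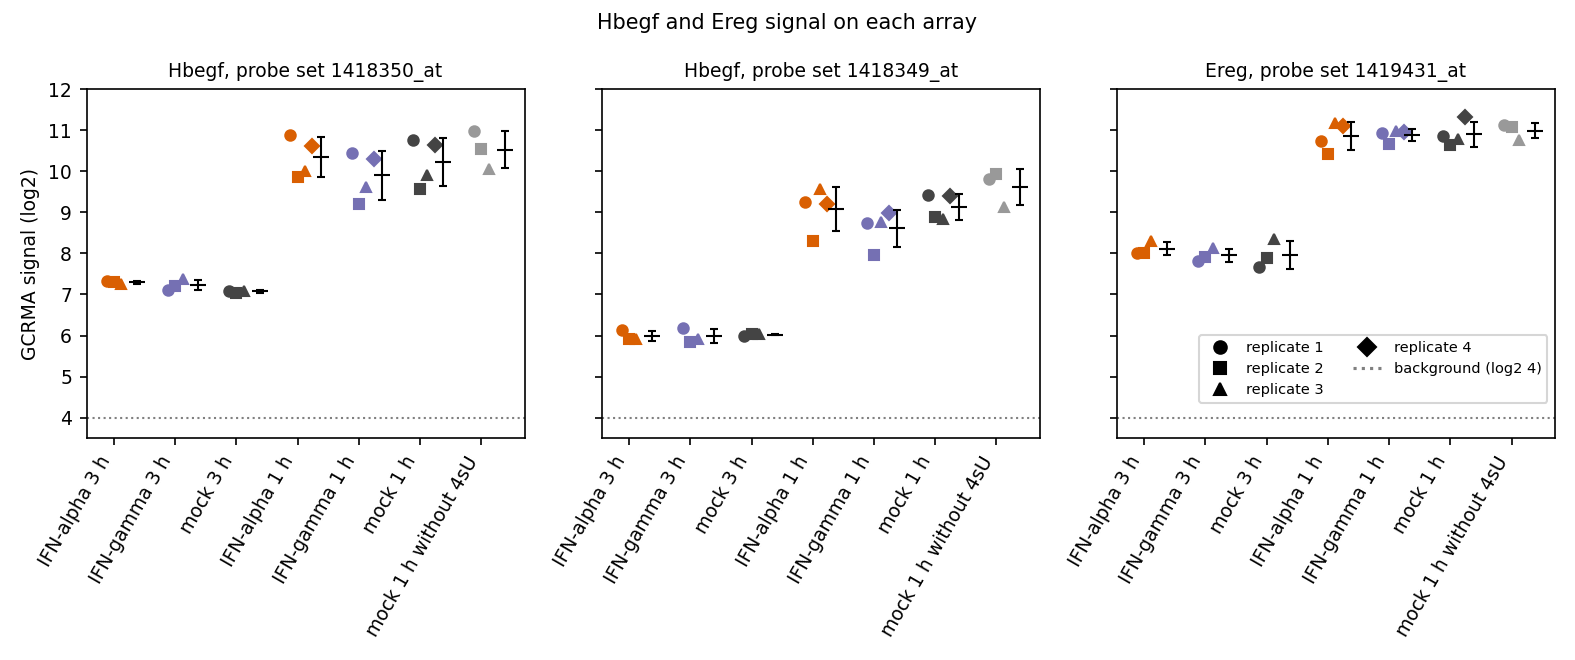
Level (log2 GCRMA signal) of each Hbegf and Ereg probe set on all 24 arrays by group, with markers for the replicate number, black bars for the group mean ± SD and a dotted line at log2 4. On every panel the 9 arrays of the 3 h groups sit below the 15 arrays of the 1 h groups, and the groups of a time overlap or nearly so.

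The same order held in cells given interferon. With IFN-alpha, Hbegf 1418350_at read 7.32, 7.31 and 7.25 at 3 h, against 10.88, 9.86, 9.998 and 10.62 at 1 h. With IFN-gamma it read 7.11, 7.21 and 7.37 at 3 h, against 10.45, 9.21, 9.61 and 10.31 at 1 h. The group means were 8.25-fold lower at 3 h with IFN-alpha and 6.35-fold lower with IFN-gamma, and no 3 h array overlapped a 1 h array of its treatment.

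Probe set 1418349_at of Hbegf read 6.13, 5.93 and 5.92 with IFN-alpha at 3 h, against 9.24, 8.30, 9.57 and 9.19 at 1 h. With IFN-gamma it read 6.17, 5.85 and 5.93 at 3 h, against 8.73, 7.95, 8.77 and 8.98 at 1 h. Its mean was 8.48-fold lower at 3 h with IFN-alpha and 6.16-fold lower with IFN-gamma, again with no overlap.

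Ereg read 8.02, 8.02 and 8.30 with IFN-alpha at 3 h, against 10.75, 10.43, 11.17 and 11.10 at 1 h. With IFN-gamma it read 7.82, 7.90 and 8.13 at 3 h, against 10.93, 10.67, 10.97 and 10.96 at 1 h. The mean level of Ereg was 6.72-fold lower at 3 h with IFN-alpha and 7.62-fold lower with IFN-gamma, and the arrays of the 2 times did not overlap. How many of all tested probe sets showed no such overlap within interferon-treated cells was not counted. In mock cells 13.1% had every 3 h array below every 1 h array. These differences within interferon-treated cells are given as a description, and the change in each interferon response between the times is tested below.

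The levels of the 7 groups can be put in order. At 3 h Hbegf 1418350_at averaged 7.29 ± 0.038 with IFN-alpha, 7.23 ± 0.13 with IFN-gamma and 7.07 ± 0.027 in mock cells (SD, n = 3 each). At 1 h it averaged 10.34 ± 0.49 with IFN-alpha, 9.90 ± 0.59 with IFN-gamma and 10.22 ± 0.58 in mock cells (SD, n = 4 each), and 10.52 ± 0.46 in mock cells without 4sU (n = 3). From the highest mean down, the order at 1 h was mock without 4sU, IFN-alpha, mock and IFN-gamma, and neighbours in it differed by less than their SDs. At 3 h the step between IFN-gamma and mock was larger than the SDs of both groups and was not called.

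Probe set 1418349_at averaged 5.99 ± 0.12 with IFN-alpha, 5.98 ± 0.17 with IFN-gamma and 6.02 ± 0.023 in mock cells at 3 h. At 1 h it averaged 9.08 ± 0.54 with IFN-alpha, 8.61 ± 0.45 with IFN-gamma, 9.13 ± 0.31 in mock cells and 9.62 ± 0.44 in mock cells without 4sU. From the highest down, the 1 h order was mock without 4sU, mock, IFN-alpha and IFN-gamma. The step between mock cells with and without 4sU was larger than both SDs and was not called.

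Ereg averaged 8.11 ± 0.16 with IFN-alpha, 7.95 ± 0.16 with IFN-gamma and 7.96 ± 0.35 in mock cells at 3 h. At 1 h Ereg averaged 10.86 ± 0.34 with IFN-alpha, 10.88 ± 0.14 with IFN-gamma, 10.89 ± 0.29 in mock cells and 10.99 ± 0.19 in mock cells without 4sU. The Ereg means within a time lay closer together than the larger SD among them, so their order is not resolved. The step between the times exceeded the SDs on both sides of it for all 3 probe sets.

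IFN-alpha, a type I interferon, gave no called difference in either ligand gene at 1 h. IFN-alpha minus mock at 1 h was 0.12 for Hbegf 1418350_at (95% interval -0.49 to 0.74), -0.06 for 1418349_at (95% interval -0.58 to 0.47) and -0.03 for Ereg (95% interval -0.42 to 0.35). The limma adjusted p was 1 for each, and 0.259% of all tested probe sets were called in that comparison. The arrays of IFN-alpha and mock cells overlapped on all 3 probe sets.

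At 3 h, IFN-alpha minus mock was 0.22 for Hbegf 1418350_at (95% interval -0.49 to 0.93), -0.03 for 1418349_at (95% interval -0.64 to 0.57) and 0.15 for Ereg (95% interval -0.29 to 0.60). The limma adjusted p was 1 for each, against 1.55% of all tested probe sets called. On 1418350_at the 3 IFN-alpha arrays (7.25 to 7.32) all lay above the 3 mock arrays (7.04 to 7.09), as was the case for 6.21% of all tested probe sets. Fitted on those arrays alone the limma adjusted p of that difference was 0.217, and the other Hbegf probe set gave overlapping arrays.

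IFN-gamma, the type II interferon, also gave no called difference at 1 h. IFN-gamma minus mock at 1 h was -0.32 for Hbegf 1418350_at (95% interval -0.94 to 0.29), -0.53 for 1418349_at (95% interval -1.05 to -0.0023) and -0.01 for Ereg (95% interval -0.39 to 0.37). The limma adjusted p was 1 for each, and 0.492% of all tested probe sets were called. Same-numbered arrays moved together between the groups at 1 h, and within each number Hbegf was lower with IFN-gamma in 4 of 4 pairs on both of its probe sets. Both probe sets stand for the same gene. How many of all tested probe sets were lower in every pair was not counted. The paired differences were -0.31, -0.36, -0.28 and -0.34 on 1418350_at and -0.68, -0.94, -0.07 and -0.42 on 1418349_at, while Ereg was lower in 1 of 4 pairs. With the replicate number as a block the limma adjusted p for Hbegf was 0.470 and 0.550, so the lower Hbegf readings with IFN-gamma did not pass the threshold in either fit. With each array left out in turn the difference ranged from -0.54 to -0.094 on 1418350_at and from -0.65 to -0.31 on 1418349_at, and it was smallest on both without replicate 2 of IFN-gamma. Against the mock cells without 4sU it was -0.63 and -1.01 (limma adjusted p = 0.512 and 0.0902). The IFN-gamma cells had 4sU and that control had none, so these values mix interferon with labelling.

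**Figure D2:**
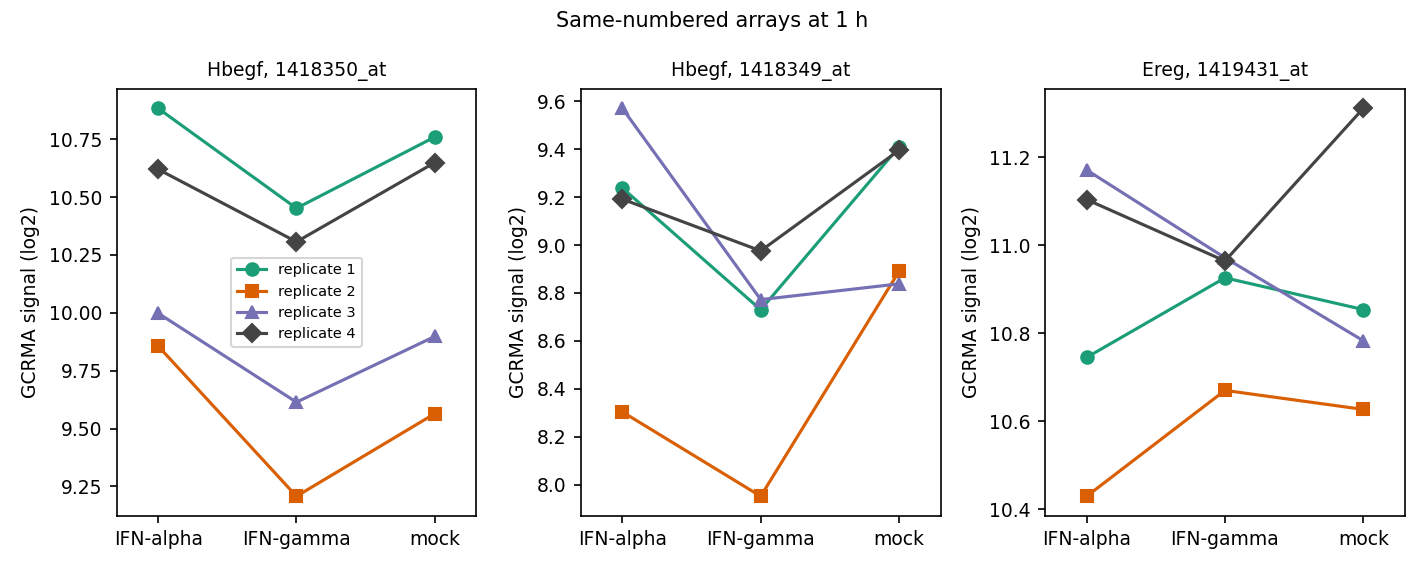
Level (log2 GCRMA signal) of the 3 probe sets in the 1 h groups, with a line joining the arrays of each replicate number across IFN-alpha, IFN-gamma and mock. Hbegf is lowest with IFN-gamma within every number on both probe sets, and Ereg shows no such order.

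At 3 h, IFN-gamma minus mock was 0.16 for Hbegf 1418350_at (95% interval -0.55 to 0.87), -0.04 for 1418349_at (95% interval -0.65 to 0.56) and -0.01 for Ereg (95% interval -0.45 to 0.44). The limma adjusted p was 1 for each, where 1.99% of all tested probe sets were called. The 3 IFN-gamma arrays of 1418350_at (7.11 to 7.37) lay above the 3 mock arrays (7.04 to 7.09), as did those of 8.31% of all tested probe sets. Fitted on these arrays alone, the SE on 1418350_at was 0.090, against 0.34 in the main fit, and the limma adjusted p was 0.510. This comparison shares its mock arrays with the one of IFN-alpha at 3 h.

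Set directly against each other at 1 h, IFN-alpha minus IFN-gamma was 0.44 for Hbegf 1418350_at (95% interval -0.17 to 1.06), 0.47 for 1418349_at (95% interval -0.06 to 0.99) and -0.02 for Ereg (95% interval -0.40 to 0.36). Hbegf was higher with IFN-alpha in 4 of 4 same-numbered pairs on both probe sets, by 0.31 to 0.65 on 1418350_at and by 0.22 to 0.80 on 1418349_at, and Ereg in 2 of 4. None was called, against 0.363% of all tested probe sets. With the replicate block the limma adjusted p for Hbegf was 0.163 and 0.642. At 3 h the same difference was 0.07 for Hbegf 1418350_at (95% interval -0.64 to 0.78), 0.01 for 1418349_at (95% interval -0.60 to 0.61) and 0.16 for Ereg (95% interval -0.28 to 0.60), with none called against 1.68%. The pairs at 1 h use the same IFN-gamma arrays as the pairs against mock cells, so they add no separate support. Their share over all tested probe sets was not counted.

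Whether either response differed between the times was tested as an interaction. The IFN-alpha response at 3 h minus that at 1 h was 0.10 for Hbegf 1418350_at (95% interval -0.84 to 1.04), 0.02 for 1418349_at (95% interval -0.78 to 0.82) and 0.19 for Ereg (95% interval -0.40 to 0.77), with none called against 0.953% of all tested probe sets. The IFN-gamma response at 3 h minus that at 1 h was 0.48 (95% interval -0.46 to 1.42) and 0.48 (95% interval -0.32 to 1.28) on the Hbegf probe sets, in the same order, and 0.0037 on Ereg (95% interval -0.58 to 0.59), with none called against 0.829%. The smallest limma adjusted p that any interferon or 4sU difference of the ligand genes reached under any setting tried was 0.0728, for the IFN-gamma response of Hbegf 1418350_at fitted on the arrays compared with a replicate block. These intervals leave room for interferon differences of up to about 1 log2 unit in Hbegf at 1 h, so they do not show that the interferons left its level unchanged.

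**Figure D3:**
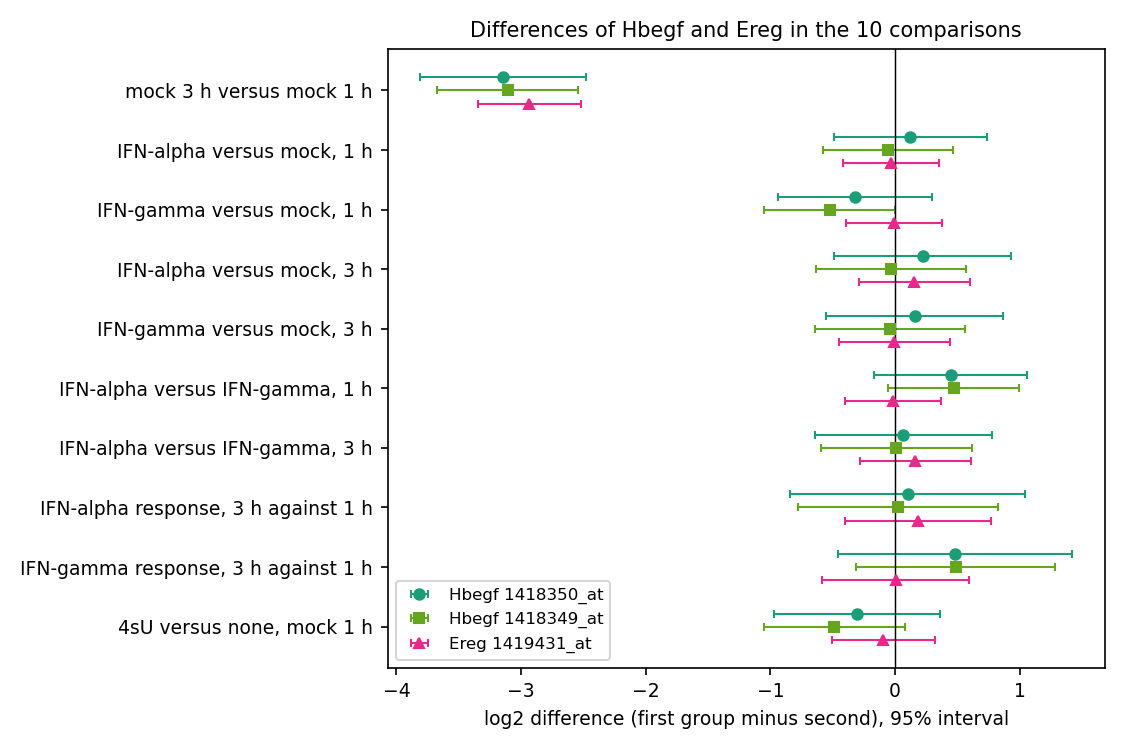
Log2 difference between group means with 95% interval for each probe set in the 10 comparisons, the first-named group minus the second. The intervals of mock 3 h minus mock 1 h lie between -3.81 and -2.48 for all 3 probe sets, while those of the other comparisons include 0, except for Hbegf 1418349_at with IFN-gamma minus mock at 1 h (-1.05 to -0.0023), which was not called.

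Labelling with 4sU was compared in mock cells at 1 h, where it was the only difference the labels give. Without 4sU, Hbegf 1418350_at read 10.97, 10.54 and 10.06, 1418349_at read 9.80, 9.94 and 9.12, and Ereg read 11.13, 11.07 and 10.77. With 4sU minus without, the difference was -0.31 for 1418350_at (95% interval -0.97 to 0.36, limma adjusted p = 0.873), -0.49 for 1418349_at (95% interval -1.05 to 0.08, limma adjusted p = 0.786) and -0.09 for Ereg (95% interval -0.51 to 0.32, limma adjusted p = 0.937). None was called, against 0.0311% of all tested probe sets, and labelled and unlabelled arrays overlapped on every probe set. Both Hbegf probe sets were lower with 4sU in 3 of 3 same-numbered comparisons and Ereg in 2 of 3, and the share over all tested probe sets was not counted. Whether the numbers pair these arrays is not settled.

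The ligand probe sets had lower medians on the arrays of wide actin gap than on the other 1 h arrays. Over those 5 arrays the median level was 9.86 for Hbegf 1418350_at (range 9.21 to 10.54), against 10.54 over the other 1 h arrays (9.61 to 10.97). For 1418349_at it was 8.89 (7.95 to 9.94), against 9.21 (8.73 to 9.80), and for Ereg 10.67 (10.43 to 11.07), against 10.97 (10.75 to 11.31). Without those arrays IFN-gamma minus mock at 1 h was -0.31 and -0.39 on the Hbegf probe sets. The part of array quality in the spread of the 1 h groups was not tested beyond this.

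The 2 probe sets of Hbegf gave the same differences between the times and lay apart in level, 1418350_at reading 0.43 to 1.72 log2 units above 1418349_at on the same array. The narrowest distance was on replicate 3 of IFN-alpha at 1 h. Over the 24 arrays the higher Hbegf probe set and Ereg had a Pearson correlation of 0.970, which mostly describes the distance between the 2 clusters of arrays. It was 0.517 within the 15 arrays at 1 h and 0.367 within the 9 arrays at 3 h. The arrays share their normalization and, at 1 h, their replicate structure.

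Among 9413 named genes, those whose levels over the 24 arrays were most like Hbegf were Ereg (Pearson r = 0.970), Angptl4 (0.970), Stk40 (0.968), Npas4 (0.965) and Zc3h12a (0.965). Those most like Ereg were Egr3 (0.981), Mideas (0.975), Npas4 (0.974), Bcl10 (0.973) and Hbegf (0.970). Ereg and Hbegf were thus in each other's 5 nearest genes. These correlations also take in the distance between the times. Within the 1 h arrays they ran from 0.465 (Npas4) to 0.919 (Angptl4) for Hbegf and from 0.081 (Bcl10) to 0.648 (Mideas) for Ereg. Within the 3 h arrays they ran from -0.24 (Zc3h12a) to 0.554 (Stk40) for Hbegf and from -0.51 (Bcl10) to 0.663 (Mideas) for Ereg. Over the 7 group means different genes came nearest, led by Adam23 for Hbegf (0.998) and Zbtb20 for Ereg (0.999), and none of the 5 nearest by group means was among the 5 nearest by arrays for either ligand. In the GRCm38 gene table Ereg lies next to Areg, and Epgn, the gene of the ligand epigen, lies on the other side of Ereg.

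The rest of the pathway was described from 6 lists with 68 genes in all, chosen with earlier results of these data known. Of 8 other ligands of the receptor family only Nrg1, the gene of neuregulin 1, passed the filter. Nrg1 averaged 4.10 in mock cells at 3 h, against 5.26 in mock cells at 1 h, and fell by 1.16 on the log2 scale (limma adjusted p = 0.0134, 2.23-fold lower). The mean levels of Egf, Tgfa, Btc, Epgn, Nrg2, Nrg3 and Nrg4 over the 24 arrays were between 2.27 and 3.05, below the background level of log2 4. Among the ligand genes with a value, those with a mean over the 24 arrays above background were therefore Hbegf, Ereg and Nrg1. At 3 h Nrg1 lay near background, with group means of 4.07 to 4.11 and a lowest array of 3.89. Its mock arrays at 1 h ran from 4.85 to 6.20.

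Of the 4 receptors, Egfr and Erbb2 were measured above background at low levels and Erbb3 and Erbb4 were not (means of 2.49 and 3.29 over the 24 arrays). Egfr averaged 5.59 ± 0.13 in mock cells at 3 h (SD, n = 3), against 5.30 ± 0.96 in mock cells at 1 h (n = 4). Erbb2, the co-receptor with no ligand of its own, averaged 6.09 ± 0.063 in mock cells at 3 h (n = 3), against 5.12 ± 0.64 in mock cells at 1 h (n = 4). Neither was called (limma adjusted p = 0.668 and 0.118).

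Of 11 genes of ligand shedding, 9 were tested and 1 was called between the mock times, against 11.3% of all tested probe sets. Adam9, a membrane metalloprotease, fell by 0.40 on the log2 scale (limma adjusted p = 0.0324). Adam17, the main sheddase of Hbegf, Ereg and Areg, averaged 8.10 ± 0.12 in mock cells at 3 h (SD, n = 3), against 7.995 ± 0.36 in mock cells at 1 h (n = 4), and was not called. Adam10, which sheds EGF and betacellulin, averaged 9.16 ± 0.15 in mock cells at 3 h, against 9.30 ± 0.31 in mock cells at 1 h, and was not called. Of 16 listed adaptors and members of the Ras-ERK cascade 11 had a value, of which 1 fell and 1 rose. Of all tested probe sets 5.88% were called lower and 5.45% higher. Nras, a Ras GTPase, fell by 0.56 (limma adjusted p = 0.0495), though its other probe sets gave -0.51 and 0.01, neither called. Map2k1, which encodes MEK1, rose by 0.58 (limma adjusted p = 0.0333, 1.49-fold higher).

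Among 13 feedback inhibitors of the pathway, 12 were tested and 5 fell between the mock times, against 5.88% of all tested probe sets called lower. The median difference was -0.93 over the 12, against 0.057 over all tested probe sets. Errfi1, an inhibitor of the EGFR kinase, fell by 2.03 ± 0.15 (4.07-fold lower, limma adjusted p = 2.18e-08), and its other probe set gave -1.53 without a call. Spry2, a Sprouty inhibitor of Ras signalling, fell by 2.02 ± 0.25 (4.06-fold lower, limma adjusted p = 2.02e-05). Spry4, of the same family, averaged 3.75 in mock cells at 3 h, against 6.02 in mock cells at 1 h, and was at least 3.98-fold lower (limma adjusted p = 8.63e-08). The ERK phosphatases Dusp5 and Dusp6 fell by 2.49 ± 0.46 and 1.36 ± 0.29 (5.64-fold and 2.57-fold lower, limma adjusted p = 0.0014 and 0.00493). The mock arrays of the 2 times did not overlap for any of these 5 genes, where 13.1% of all tested probe sets had every 3 h array lower. The 5 genes were named because they were called, so this adds no separate support.

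Among 16 early genes that respond to ERK, all tested, 11 fell between the mock times and 5 were not called, with a median difference of -1.23. Of all tested probe sets 5.88% were called lower. Egr3, a zinc-finger transcription factor, averaged 8.002 in mock cells at 3 h, against 11.60 in mock cells at 1 h, which was 12.1-fold lower (-3.60 ± 0.19, limma adjusted p = 9.4e-11). Egr2 fell by 2.63 ± 0.30 (6.20-fold lower, limma adjusted p = 6.31e-06), Egr1 by 0.90 ± 0.13 (limma adjusted p = 0.000129) and Phlda1 by 2.14 ± 0.57 (limma adjusted p = 0.0189). Of the AP-1 subunits Jun fell by 1.26, Fos by 1.17 and Fosl1 by 1.16, while Junb gave -1.47 without a call. Fosb was not called either, and its means of 2.22 in mock cells at 3 h and 3.48 in mock cells at 1 h were both below background. Ptgs2, which encodes cyclooxygenase-2, fell by 1.04 ± 0.12 and was still at 12.06 in mock cells at 3 h, against 13.10 in mock cells at 1 h.

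Ier3 and Srf fell by 1.199 and 1.27, and Atf3 was at least 2.69-fold lower (limma adjusted p = 0.0442, 0.000379 and 0.000446). The other probe sets of Fosl1 and Srf gave -0.85 and 0.22, neither called. Plaur, Myc and Ier2 gave -1.06, -0.26 and 0.13 without a call. Of the listed genes Egr3 had a more negative difference than the ligand genes, and the other listed genes called had smaller ones.

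**Figure D4:**
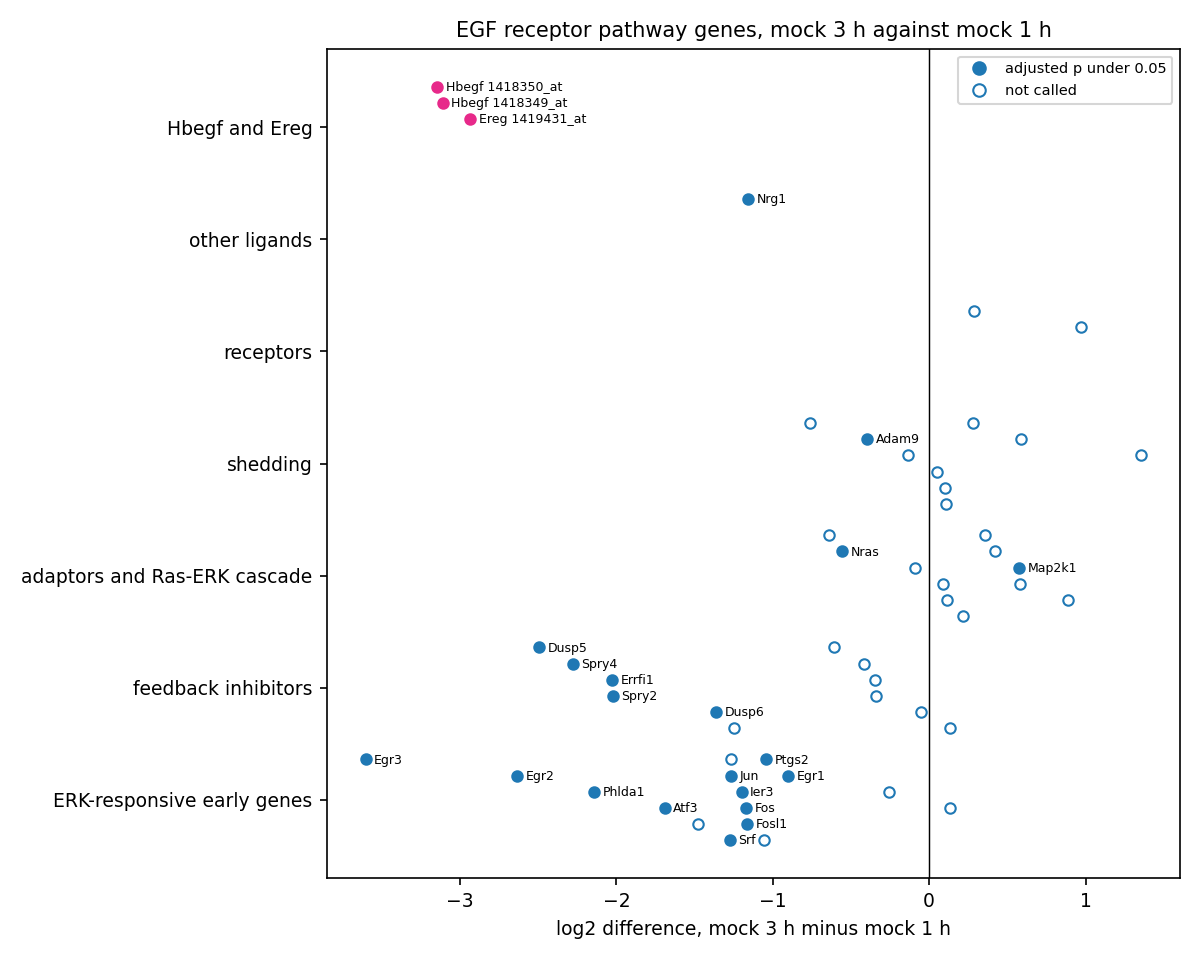
Log2 difference, mock 3 h minus mock 1 h, for each tested gene of the ligands and of the 6 pathway lists, with filled points for genes called at an adjusted p under 0.05 and open points for the others. Hbegf and Ereg lie near -3, and the lower calls are mostly among feedback inhibitors and early genes.

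Over the 6 lists together 51 genes were tested, of which 19 fell, 1 rose and 31 were not called, against 5.88% called lower and 5.45% called higher over all tested probe sets. The count of 19 rested in part on single arrays of the 3 h mock group, being 12 without its replicate 1 and 12 without its replicate 2. In a fit of only the arrays compared 11 were called lower.

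With interferon, 1 of the 51 listed genes was called, at both times with IFN-gamma. Of all tested probe sets 0.492% were called with IFN-gamma at 1 h and 1.99% at 3 h. Cblb, an E3 ubiquitin ligase of the Cbl family that acts on activated receptors, averaged 7.14 with IFN-gamma at 1 h, against 4.63 in mock cells at 1 h (5.67-fold higher, limma adjusted p = 2.42e-05). At 3 h it averaged 6.50 with IFN-gamma, against 4.29 in mock cells (4.62-fold higher, limma adjusted p = 0.000214). Its other probe set gave -0.11 at 1 h and 1.52 at 3 h, neither called. A second probe set of Jun was 1.09 log2 units higher with IFN-gamma than in mock cells at 3 h (limma adjusted p = 0.000437), while the one of higher mean gave 1.07 (limma adjusted p = 0.111). With the replicate number as a block, 4 listed genes were called higher and 1 lower with IFN-gamma at 3 h, and with array weights 12 higher and 6 lower. Array weights also raised the calls over all tested probe sets in that comparison, to 2223 against 385 in the main fit. The count over all tested probe sets with the block is not given here.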

How the data were processed

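Values were taken from the series' table of 24 arrays, whose log2 signals the authors deposited after GCRMA (correction for background, normalization and summary by probe set), per the submitters' processing notes. The GCRMA version and the array build are not given in the sources used here. Leaving out 64 controls from 45101 probe sets left 45037, and genes were named from the 34945 with a single symbol in the platform annotation. Probe sets above log2 4 on at least 3 arrays were kept (19305).

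The 7 groups were fitted together with limma 3.58.1 in R 4.3.3 (lmFit, eBayes, 17 residual degrees of freedom), with 10 two-sided comparisons. Calls were made at 0.05 after Benjamini-Hochberg adjustment over all 19305. The fit was tested on simulated data. Genes with several probe sets are given by the one of highest mean, and a fold against a mean below log2 4 is a lower bound against that level. Pathway genes were named when called in any comparison, otherwise by highest mean. The other genes named without a call were chosen after their values were seen. The members and lists were chosen with earlier results of these data known.

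Deviations of same-numbered arrays from their group means correlated at 0.465 to 0.914 at 1 h and 0.128 to 0.646 at 3 h, so the replicate number was also fitted as a block. Between the mock times the correlation was -0.23 to 0.13, so these numbers do not pair the arrays. Between 4sU and none it was 0.081 to 0.802, and whether those numbers pair the arrays is not settled. Other alternatives were a floor at log2 4, no filter, a filter at log2 6, only the arrays compared, array weights, quantile normalization, another control, no arrays of wide actin gap, and each array left out. The estimate of the array weights gave a convergence warning, and results with array weights are given as run. No sequences are printed.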

Additional observations from a re-analysis of the deposited data

Results flagged for a closer look

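Of 72 groups of 4 arrays examined over 24 probe sets (those of the ligand genes and of the pathway genes called), 8 held an array that stood apart from the other 3. Chance flags about 1 in 20 groups. Ereg on replicate 2 of IFN-gamma at 1 h was at 10.67, below 10.93 to 10.97 on the others. Nrg1 on replicate 4 of IFN-gamma at 1 h was at 5.64, above 4.81 to 4.90. Replicate 2 of mock at 1 h stood apart for Adam9, at 11.18 above 10.98 to 11.01, and for Errfi1, at 12.78 above 12.37 to 12.44. Nras on replicate 2 was at 8.47 with IFN-alpha at 1 h, above 7.89 to 7.95, and at 8.64 with IFN-gamma at 1 h, above 8.03 to 8.06. Replicate 4 of mock at 1 h stood apart for Dusp6, at 10.11 above 9.27 to 9.40, and for Fos, at 10.33 above 9.18 to 9.38. All of the replicate 2 arrays named here have the wide actin gap, of 2.99 to 3.43 log2 units, and its part in these values was not tested.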

How the results depend on the processing

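The fall of both ligand genes between the mock times was called under every alternative run for it, and with each array left out the difference lay between -3.36 and -2.96 for Hbegf 1418350_at, -3.21 and -3.02 for 1418349_at and -3.12 and -2.79 for Ereg. No paired analysis was possible between the mock times because the replicate numbers do not pair those arrays. No interferon or 4sU difference of the ligand genes was called under any alternative, the replicate block included. With that block 4sU minus none was -0.43 and -0.57 for Hbegf (limma adjusted p = 0.139 and 0.250). Whether the numbers pair the labelled and unlabelled arrays is not settled.

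Of 273 values under the other alternatives 264 kept their direction and side of the threshold, and 9 uncalled differences near 0 changed sign; the cause was not tested. With array weights these were IFN-alpha minus mock at 3 h for Hbegf 1418349_at (0.00038), IFN-gamma minus mock at 3 h for Ereg (0.012) and 4sU minus none for Ereg (0.031) and Hbegf 1418350_at (0.044). Without the arrays of wide actin gap they were IFN-alpha minus mock at 1 h for Ereg (0.024) and 1418349_at (0.12), IFN-alpha minus IFN-gamma at 1 h for Ereg (0.053) and the IFN-alpha response between times for 1418349_at (-0.15). With unlabelled mock as control it was IFN-alpha minus mock at 1 h for 1418350_at (-0.19). The same control moved IFN-alpha minus mock at 1 h for 1418349_at to -0.54, against -0.06. Differences from that control mix interferon with labelling, because it had no 4sU.

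With 1 array left out, signs also changed in 35 of 252 values, none called. IFN-alpha minus mock at 1 h ranged from -0.22 to 0.20 for 1418349_at, -0.10 to 0.30 for 1418350_at and -0.13 to 0.11 for Ereg. For Ereg IFN-gamma minus mock ranged from -0.10 to 0.13 at 1 h and -0.16 to 0.18 at 3 h, its change between times from -0.15 to 0.19, and IFN-alpha minus IFN-gamma at 1 h from -0.12 to 0.12. The IFN-alpha response between times ranged from -0.23 to 0.19 for 1418349_at and -0.080 to 0.32 for 1418350_at. At 3 h 1418349_at ranged from -0.10 to 0.0036 for IFN-alpha minus mock, -0.14 to 0.025 for IFN-gamma minus mock and -0.063 to 0.10 for IFN-alpha minus IFN-gamma.

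The number of all probe sets called moved with the setting: for the mock times from 822 (only the arrays compared) to 4540 (array weights), against 2188. At 1 h it ran from 14 to 85 for IFN-alpha (main 50), 28 to 206 for IFN-gamma (95) and 10 to 166 between them (70), and at 3 h from 223 to 1813 (300), 307 to 2223 (385) and 241 to 2046 (325). For 4sU it ran from 0 to 111 (6), with 111 under the replicate block, and for the responses between times from 141 to 317 (184) for IFN-alpha and 127 to 437 (160) for IFN-gamma. Listed genes lower between the mock times numbered 11 to 25 (19). With array weights, listed genes called for IFN-alpha minus IFN-gamma at 3 h numbered 6 higher and 9 lower, against 0 and 1. That setting called 2046 of all tested probe sets in the same comparison, against 325. For IFN-alpha minus mock at 3 h, 3 were called higher, against 0, in a fit of only the arrays compared with a replicate block. Having 3 or 4 arrays a group limits small differences.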
